A study of Mus musculus with 16 samples.

Results

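Binding of the transcription factor Meis1 was compared between ventricles of young mice that had received paromomycin combined with neomycin (Paro/Neo), 2 antibiotics of the aminoglycoside class, and ventricles of mice that had received the vehicle, phosphate-buffered saline. The data are 4 chromatin immunoprecipitation sequencing (ChIP-seq) peak lists out of the 16 samples of the series, 2 from each treatment, with groups and replicate numbers taken from the sample titles. Paro/Neo was injected intraperitoneally at 150 mg/kg, 2 times a day, from postnatal day 7 for 7 days, and hearts were taken at postnatal day 15. No strain, transgene or deletion is named in the labels. The antibody is described as recognising Meis1/2, so a region can be bound by Meis1, Meis2 or both. Ventricles of 2 hearts are given as biological duplicates, which leaves unclear whether a library is a pool or 1 heart, and the exact p-values below therefore measure the spread between these libraries.

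Peaks of the 4 lists that shared at least 1 bp were merged, which gave 5069 regions on mm10. A region with a peak in all 4 lists is called kept, a region in both vehicle lists and in neither Paro/Neo list is called lost, and a region in both Paro/Neo lists and in neither vehicle list is called gained. Lost therefore means that neither Paro/Neo list used here has a peak there, not that binding was shown to be absent. All classes were formed again after each list had been cut to its 1025 peaks of highest fold enrichment, the length of the shortest list, and these are called equal-length lists.

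Meis1 belongs to the TALE group of homeodomain proteins, which bind a short core of DNA letters, usually together with partner proteins such as Hox factors. In the heart Meis1 is known for a part in the arrest of cardiomyocyte division after birth, where it activates inhibitors of cyclin-dependent kinases, and for a part in cardiac conduction and energy metabolism. Hoxb13 is a Hox partner studied for the same arrest.

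To show the promoters at kept and lost regions, promoter sequences were read from RefSeq on build GRCm38.p6, whose coordinates are those of mm10. Each line gives the 250 bases before a gene's start, 5′ to 3′ on the strand of the gene, with every match to the MEIS core TGACAG or its complement CTGTCA in capitals. The first 5 promoters carried a kept region (Apobec2, Cacna1c, Lrrc10, Mylk3 and Cox7a1) and the other 5 a lost one (Hes6, Fsd2, Pfkl, Myh6 and Ttn), and they were chosen for this display after their values were seen.
Apobec2, chr17:48432729-48432978, minus strand: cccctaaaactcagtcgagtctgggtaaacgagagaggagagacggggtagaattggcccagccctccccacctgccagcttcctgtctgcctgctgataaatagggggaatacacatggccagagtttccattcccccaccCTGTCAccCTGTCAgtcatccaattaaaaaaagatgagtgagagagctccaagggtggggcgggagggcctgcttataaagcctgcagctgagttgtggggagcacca
Cacna1c, chr6:119196410-119196659, minus strand: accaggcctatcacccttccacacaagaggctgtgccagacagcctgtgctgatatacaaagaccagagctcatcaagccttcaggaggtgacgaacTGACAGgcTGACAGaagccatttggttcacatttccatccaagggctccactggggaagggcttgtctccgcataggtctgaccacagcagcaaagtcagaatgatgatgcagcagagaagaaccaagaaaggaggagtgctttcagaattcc
Lrrc10, chr10:117045091-117045340, plus strand: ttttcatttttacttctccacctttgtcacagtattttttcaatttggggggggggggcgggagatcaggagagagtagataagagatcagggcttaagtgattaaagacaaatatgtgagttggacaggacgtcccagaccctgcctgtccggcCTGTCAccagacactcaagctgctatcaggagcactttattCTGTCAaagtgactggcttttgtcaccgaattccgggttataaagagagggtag
Mylk3, chr8:85365325-85365574, minus strand: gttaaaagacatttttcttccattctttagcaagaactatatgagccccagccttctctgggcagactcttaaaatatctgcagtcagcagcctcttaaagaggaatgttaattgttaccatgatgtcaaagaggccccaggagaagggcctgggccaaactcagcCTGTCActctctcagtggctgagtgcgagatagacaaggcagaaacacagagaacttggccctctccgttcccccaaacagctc
Cox7a1, chr7:30183921-30184170, plus strand: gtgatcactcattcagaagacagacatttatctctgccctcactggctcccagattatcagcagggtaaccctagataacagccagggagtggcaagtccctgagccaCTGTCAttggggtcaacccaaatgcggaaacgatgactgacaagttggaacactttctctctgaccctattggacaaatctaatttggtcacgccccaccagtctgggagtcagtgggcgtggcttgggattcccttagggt
Hes6, chr1:91414039-91414288, minus strand: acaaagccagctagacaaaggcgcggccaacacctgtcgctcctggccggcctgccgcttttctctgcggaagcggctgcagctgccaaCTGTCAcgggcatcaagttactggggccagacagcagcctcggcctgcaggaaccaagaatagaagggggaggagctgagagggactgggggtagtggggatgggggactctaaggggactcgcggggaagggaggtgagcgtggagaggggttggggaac
Fsd2, chr7:81566982-81567231, minus strand: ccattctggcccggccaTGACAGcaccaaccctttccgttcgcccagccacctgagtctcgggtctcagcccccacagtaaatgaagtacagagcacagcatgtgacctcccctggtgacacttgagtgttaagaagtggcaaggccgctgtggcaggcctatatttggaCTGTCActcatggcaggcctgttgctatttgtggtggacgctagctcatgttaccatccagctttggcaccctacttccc
Pfkl, chr10:78009808-78010057, minus strand: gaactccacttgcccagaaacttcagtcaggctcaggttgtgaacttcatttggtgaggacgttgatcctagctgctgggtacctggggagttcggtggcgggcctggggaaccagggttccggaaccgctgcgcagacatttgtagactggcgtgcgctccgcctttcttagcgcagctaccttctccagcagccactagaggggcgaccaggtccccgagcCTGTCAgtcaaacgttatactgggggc
Myh6, chr14:54966608-54966857, minus strand: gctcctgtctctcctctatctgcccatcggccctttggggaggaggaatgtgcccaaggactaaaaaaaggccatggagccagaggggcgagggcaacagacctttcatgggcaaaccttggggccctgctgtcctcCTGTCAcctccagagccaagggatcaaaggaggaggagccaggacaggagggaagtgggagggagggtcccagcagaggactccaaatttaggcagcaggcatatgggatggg
Ttn, chr2:76982548-76982797, minus strand: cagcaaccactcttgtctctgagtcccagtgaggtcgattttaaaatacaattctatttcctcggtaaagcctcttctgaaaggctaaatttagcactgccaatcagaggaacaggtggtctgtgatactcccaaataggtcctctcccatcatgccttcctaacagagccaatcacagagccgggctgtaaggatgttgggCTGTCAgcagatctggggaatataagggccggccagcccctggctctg

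Every promoter shown holds the MEIS core at least once, the kept and the lost alike. Because the promoters were chosen with their values known, this gives no rate. Over all promoter windows counted below, 60.5% of kept and 52.2% of lost ones held the core. At Apobec2 and Cacna1c, which both kept their region, a pair of cores lies close together, with first bases at 108 and 100 bp before the start in Apobec2 and at 153 and 145 bp in Cacna1c. Lrrc10 has cores at 95 and 54 bp before its start. Among the promoters that lost their region, Fsd2 has cores at 233 and 80 bp, Myh6 at 113 bp, Hes6 at 161 bp, Ttn at 48 bp and Pfkl at 27 bp before the start. The Myh6 core at 113 bp and the Fsd2 core at 233 bp lie outside the called lost region, and the other cores printed lie inside theirs. Apobec2, Cacna1c, Lrrc10 and Myh6 have further matches after the start, which are not printed.

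Over all promoter windows, from 250 bp before to 50 bp after a start, the MEIS core was present in 23 of 38 windows touched by a kept region (60.5%, exact 95% interval 43.4 to 76.0) and in 36 of 69 touched by a lost region (52.2%, 39.8 to 64.4). The same letters were present in 3970 of all 21262 windows (18.7%) and in 18.1% of the 20872 windows with no region. Windows of regions held by both vehicle lists and 1 Paro/Neo list had it in 54.2% (39.2 to 68.6, n = 48), and windows of regions in a single vehicle list in 44.9% (37.9 to 52.2, n = 198). The intervals of kept and lost windows overlapped. Within the part of the window that the region covered, matches numbered 3.57 per kb in kept and 2.47 per kb in lost windows, against 0.700 per kb over all windows. With the first replicates alone, 56.2% of the windows in both vehicle and Paro/Neo (n = 73) and 50.8% of the windows in vehicle alone (n = 197) had the core.

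**Figure D1:**
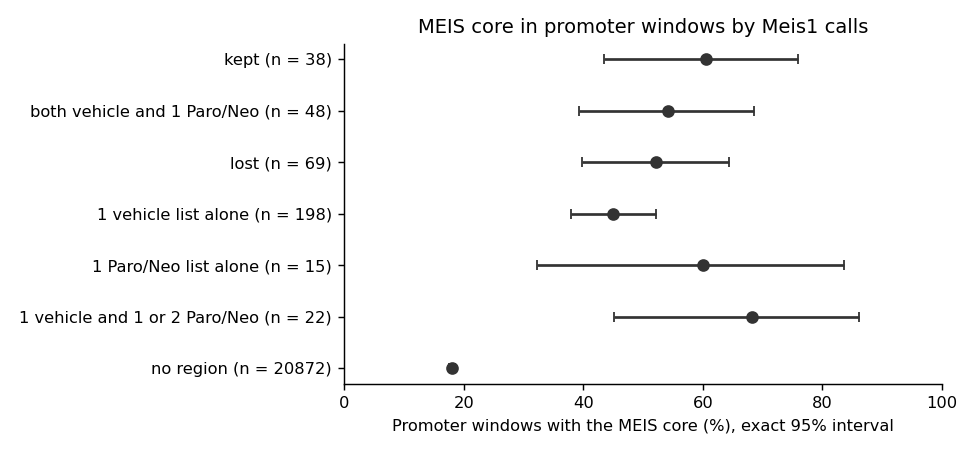
Share of promoter windows that hold the MEIS core on either strand (x axis, percent) by the lists whose region touches the window (y axis, with the number of windows). Points are shares and bars exact 95% intervals for counting error; every class with a region lies above the windows with no region (18.1%), and kept (60.5%) and lost (52.2%) windows have overlapping intervals.

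Other short motifs were counted in the same way. The GATA motif AGATAA, either strand, lay in 5 of 38 kept windows (13.2%, exact interval 4.41 to 28.1). It lay in 1 of 69 lost windows (1.45%, 0.0367 to 7.81) and in 9.65% of all windows. These counts are small and the intervals of kept and lost windows overlapped, so no difference is read from them. The TEAD motif GGAATG lay in 15.8% of kept, 17.4% of lost and 13.6% of all windows. The ETS motif CCGGAA lay in 28.9% of kept, 30.4% of lost and 18.7% of all windows. Kept windows had a median GC content of 57.7% and lost windows of 59.3%, against 56.3% over all windows. The median number of CpG dinucleotides was 15.5 in kept, 20.0 in lost and 13.0 in all windows. A match describes the letters in the window, not a site.

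The names of the deposited lists carry a different letter from the label for the second replicates of both groups, so the 2 sources give different answers as to which list came from vehicle hearts. The labels were followed, and values for the first replicates alone are given for the region counts, the promoter windows and the gene lists. For the other results (widths, gene starts, ranks, gained regions and microRNA genes) no such value was computed. Lists of vehicle replicates 1 and 2 held 3529 and 3176 peaks and those of Paro/Neo replicates 1 and 2 held 1541 and 1025, a difference in log2 number of −1.41 with no overlap between the groups (exact two-sided permutation p = 0.333, the smallest that 2 against 2 libraries allow). Median peak widths lay between 255 and 260 bp in all 4 lists. Sequencing depth is unknown, so a shorter list cannot be told apart from a shallower library. Of the 9 cardiomyocyte markers examined, 5 and 4 had a peak in the vehicle lists and 2 and 3 in the Paro/Neo lists. In every list 2 of 7 endothelial, 1 of 7 fibroblast and 1 of 6 smooth muscle and pericyte markers had one. The 5 leukocyte, 4 erythroid and 4 neuronal markers examined had none in any list. Over all protein-coding genes the shares were 8.59% and 8.20% in vehicle and 4.07% and 2.83% in Paro/Neo. Counts from so few genes therefore say little about a cell type. In the longer list of 11 neuron and glia genes, 3 members had a peak in vehicle replicate 1 and 2 in vehicle replicate 2. In Paro/Neo replicates 1 and 2 it was 0 and 1. Peaks in bulk ventricle do not tell whether fewer cells of a type were bound or fewer sites in each cell.

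Of the 2033 regions held by both vehicle lists, 610 were kept (30.0%), 807 were lost (39.7%) and 616 were in 1 Paro/Neo list. Of these 616, 446 were in the longer list of Paro/Neo replicate 1 and 170 in that of replicate 2. Outside this set, 1336 regions were in vehicle replicate 1 alone and 1011 in vehicle replicate 2 alone, more than in any other combination. A further 26 regions were in both Paro/Neo lists and 1 vehicle list, and 15 were gained. In the equal-length lists, 658 regions were held by both vehicle lists, of which 408 were kept (62.0%), 83 were lost (12.6%) and 167 were in 1 Paro/Neo list, and 42 were gained. With the first replicates alone, 1181 of the 3528 regions of vehicle replicate 1 (33.5%) were in Paro/Neo replicate 1, counted on the regions merged over all 4 lists. With the second replicates exchanged between the groups, as the names of the lists would have it, 34 regions were lost and 82 gained with whole lists, and 53 were lost and 76 gained at equal length, while the kept counts are the same by construction. Lost regions numbered 1819 without vehicle replicate 1, 2144 without vehicle replicate 2, 1253 without Paro/Neo replicate 1 and 978 without Paro/Neo replicate 2, since a class that needs fewer lists holds more regions. The classes of single genes below carry this limit.

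**Figure D2:**
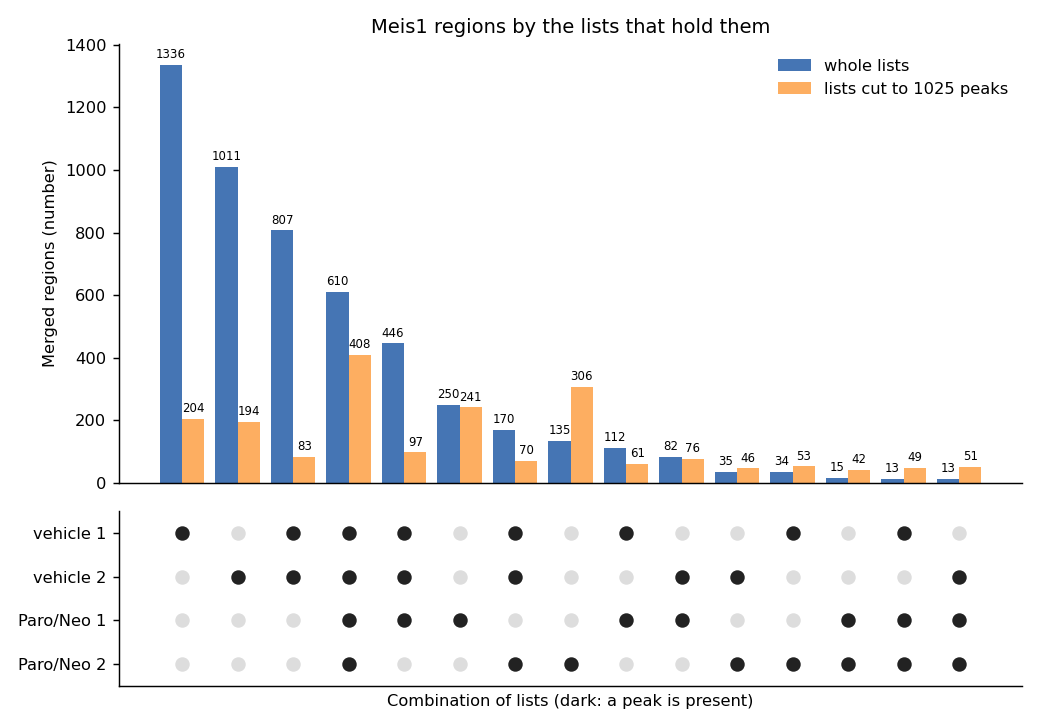
Number of merged Meis1 regions (y axis) for each combination of lists (dark dots below), with whole lists in blue and lists cut to 1025 peaks in orange. Regions of a single vehicle list are the most numerous with whole lists (1336 and 1011), and kept regions are the most numerous at equal length (408).

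Kept regions were wider than lost ones and ranked higher in vehicle. The median width was 367 bp for kept regions (quartiles 324 and 474) and 284 bp for lost regions (252 and 354). Kept regions were also the wider in each of the 4 quartiles of vehicle fold: in the strongest quartile the medians were 375 bp for 385 kept and 292 bp for 22 lost regions, and in the weakest quartile 342 bp for 23 kept and 300 bp for 362 lost regions. A merged region grows with the number of peaks merged, and kept regions unite 4 peaks and lost ones 2. Positions relative to genes had overlapping intervals. A start of a protein-coding gene lay within 1 kb of 7.19% of kept (exact 95% interval 5.23 to 9.60) and 9.74% of lost regions (7.75 to 12), and 53.6% of kept and 52.5% of lost regions lay inside a gene. Per library the share of peaks near a start was 9.16% and 9.44% in vehicle and 6.36% and 9.30% in Paro/Neo, so that Paro/Neo replicate 1 alone stood below the others (difference of means −1.47 percentage points, exact permutation p = 0.667).

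Gse1, a component of a chromatin corepressor complex, held a region (chromosome 8, 120289738 to 120290215) with folds of 15.6 and 21.5 in vehicle and 19.2 and 19.5 in Paro/Neo, and it ranked among the first 11 peaks of every list. These folds are the authors' enrichments over background and rank peaks within a list. A region 80534 bp from Lbh, a transcriptional regulator of heart development, had ranks 8 and 7 in vehicle and 5 and 1 in Paro/Neo (chromosome 17, 73022480 to 73023196). Myl2, the ventricular regulatory light chain of myosin, kept a region inside the gene at ranks 3, 5, 10 and 4 in vehicle replicates 1 and 2 and Paro/Neo replicates 1 and 2. Dot1l, a histone methyltransferase gene, had folds of 17.3, 14.1, 11.3 and 13.4 in the same order. Others of the 15 kept regions with the highest mean percentile of fold were within Bpifb1 and Trpm2 and outside Arl8a, Mmp13, Pnrc1, Bcl2l11 and En1, and, at over 50 kb, nearest to Adgrl2, Ntm, Olfr1505 and Otos, with mean percentiles from 98.8 to 99.7. None of these 15 lay within 1 kb of a gene start.

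A kept region lay in or within 5 kb of 382 of the 21883 protein-coding genes (1.75%), a lost region at 530 (2.42%) and a gained region at 7 (0.0320%). Of the 1171 genes with a region held by both vehicle lists, 382 had a kept one, 450 had lost every such region, and the other 339 had a region in 1 Paro/Neo list. In 416 of the 1171 genes neither Paro/Neo list had any peak. A total of 39 genes had both a kept and a lost region. Cacnb2, a regulatory subunit of the L-type calcium channel, had the most kept regions, 3 of 4. Gfod1 had the most lost regions, 3, with no Paro/Neo peak. Sardh, Zbtb7c, Frmd4a, Kcnh2, Pde7b and Pxk each kept 2, and Arhgef3, Fsd2, Htra1, Ncald and C1qtnf7 each lost 2 and had no peak in either Paro/Neo list.

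Genes of cardiac excitability kept most of their regions, and all the kept ones lay in the strongest quartile of vehicle fold. Of the 11 regions at genes of calcium, sodium and pacemaker channels that both vehicle lists held, 7 were kept, 3 were lost and 1 was in Paro/Neo replicate 1 alone, against 29.5% kept and 39.6% lost over the 1239 such regions at all genes. Cacna1c, the pore of the L-type calcium channel, kept a 1597 bp region over its start (chromosome 6, 119195564 to 119197160) with folds of 7.84 and 7.78 in vehicle and 6.86 and 7.61 in Paro/Neo. The 2 groups lay close together there, with ranks 317, 325, 233 and 105. Cacnb2 kept a region 26 bp from its start (chromosome 2, 14823017 to 14824066), with folds of 8.21 and 8.36 in vehicle and 6.08 and 8.63 in Paro/Neo. Cacna1g, a T-type calcium channel, kept a region inside the gene (chromosome 11, 94450345 to 94451669) with folds of 11.0, 10.4, 9.44 and 6.97. Hcn4, a pacemaker channel, kept a region with folds of 9.16 and 9.0 in vehicle and 5.69 and 6.77 in Paro/Neo. Lost regions of this list lay at Cacna1d, at Cacna2d1 and at the fourth Cacnb2 region, with vehicle folds from 3.19 to 5.58.

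At potassium channel genes 7 of 13 regions were kept, 3 were lost and 3 were in 1 Paro/Neo list. Abcc9, a subunit of ATP-sensitive potassium channels that is also a pericyte marker, kept a region of folds 11.7 and 12.9 in vehicle and 5.53 and 7.78 in Paro/Neo (chromosome 6, 142689691 to 142690012). A weaker region beside it, with folds of 4.14 and 4.11, was lost. Kcnj5, part of the acetylcholine-activated channel, kept a region of folds 6.89, 8.33, 6.58 and 6.46. Abcc8, which pairs with pore subunits of the same ATP-sensitive family, had 7.58 and 8.03 against 6.76 and 8.28. At Kcnh2, the channel of the rapid repolarising current, both regions were kept. Kcne1, which modifies the slow repolarising current, lost a region of folds 6.22 and 4.71. Regions at both channel lists were strong in vehicle, with median percentiles of fold of 89.2 and 84.9 against 62.8 at all genes. Within the strongest quartile of vehicle fold all 7 calcium, sodium and pacemaker and 7 of 8 potassium channel regions were kept, where 75.8% of all regions in that quartile were. Outside it none was kept: 0 of 2 and 0 of 2 calcium, sodium and pacemaker regions in quartiles 1 and 2. At potassium channels it was 0 of 3 and 0 of 2 in quartiles 1 and 3. Whether channel genes differ from other genes with regions of equal strength was not tested. With the first replicates alone, Paro/Neo held 9 of 13 and 9 of 19 vehicle regions of the 2 lists, against 33.1% at all genes.

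**Figure D3:**
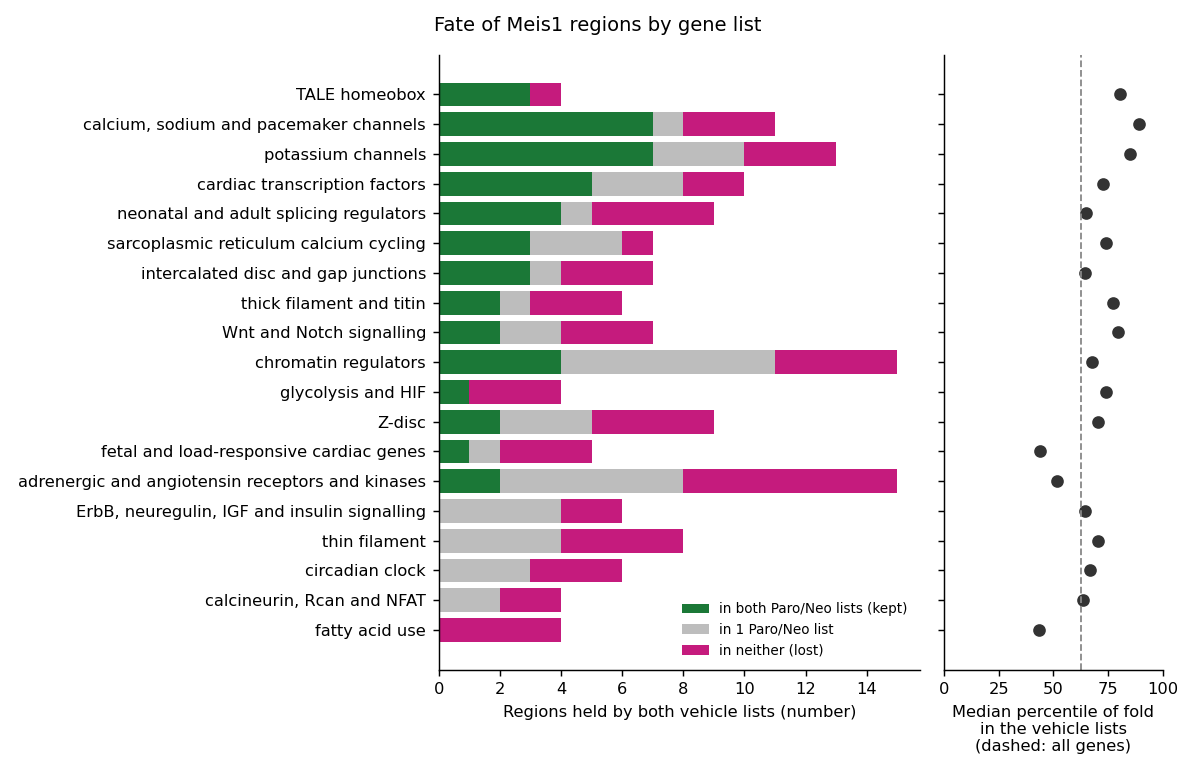
Left, number of regions held by both vehicle lists (x axis) at the genes of each list shown, all with at least 4 such regions, split into kept (green), in 1 Paro/Neo list (grey) and lost (pink); right, median percentile of fold of these regions in the vehicle lists, with all genes dashed at 62.8. Channel genes kept 7 of 11 and 7 of 13 regions and rank high in vehicle, and genes of fatty acid use kept 0 of 4.

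Cardiac transcription factor genes kept 5 of 10 regions and lost 2, against 29.5% kept and 39.6% lost at all genes. The median vehicle percentile of these regions was 72.5, against 62.8 at all genes. Prdm16, which maintains cardiomyocyte identity, kept a region of folds 10.8 and 13.0 in vehicle and 7.54 and 5.58 in Paro/Neo (chromosome 4, 154393275 to 154393915). Myocd, the myocardin coactivator of muscle genes, kept 1 of 3 regions, with folds of 4.87 and 9.06 in vehicle and 7.07 and 9.34 in Paro/Neo. Mef2a and Tbx18 kept regions at their starts, with folds from 3.99 to 6.20 at Mef2a and from 4.33 to 6.15 at Tbx18. The 2 lost regions were at Gata4, with folds of 4.41 and 3.60, and at Nfia, with 3.58 and 3.68. The first replicates held 7 of 13 in common, against 33.1% at all genes.

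Among TALE genes, the regions at Meis1 and Pknox1 were kept and that at Meis2 was lost. The Meis1 region lay 148 bp from a start of the gene (chromosome 11, 19018517 to 19018821), with folds of 7.79 and 4.86 in vehicle and 4.73 and 4.89 in Paro/Neo. Pknox1, a related TALE gene, had folds of 8.14 and 7.00 in vehicle and 4.91 and 5.69 in Paro/Neo. The Meis2 region, 584 bp from its start (chromosome 2, 116065203 to 116065672), had vehicle folds of 3.83 and 4.94 and no Paro/Neo peak. Genes of the Hox family had no region in both vehicle lists, and Hoxb13 had a single peak, in vehicle replicate 2, of fold 4.08.

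Genes of the contractile apparatus lost more regions than they kept, as did all genes (39.6% lost, 29.5% kept). The shares were 33.3% kept and 50.0% lost at thick filament genes and 22.2% kept and 44.4% lost at Z-disc genes, near those of all genes. Thin filament genes held 8 regions in both vehicle lists, of which 0 were kept, 4 were lost and 4 were in 1 Paro/Neo list. Tnnt2, cardiac troponin T, had 3 of these. Its region over the start had folds of 4.78 and 4.81 in vehicle, none in Paro/Neo replicate 1 and 4.22 in Paro/Neo replicate 2. A second, inside the gene, had 5.16 and 6.65 in vehicle and 4.67 in Paro/Neo replicate 1, and the third (chromosome 1, 135848052 to 135848367), with 6.64 and 5.73, was lost. Tmod1, which caps thin filaments, Nebl and Lmod3 also lost a region each. Regions in this list were not weak in vehicle, with a median percentile of 70.2, but none lay in the strongest quartile.

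Thick filament genes kept 2 of 6 regions and lost 3. Beside the strong region inside Myl2, that over the start of the gene had folds of 10.0 and 8.36 in vehicle and 6.79 in Paro/Neo replicate 1, and no peak in replicate 2. Mylk3, the cardiac myosin light chain kinase, kept the region over its start (folds 7.08 and 6.58 in vehicle, 4.10 and 5.38 in Paro/Neo) and lost a second inside the gene (5.11 and 6.21). Titin lost a 1133 bp region over a start of Ttn (chromosome 2, 76981730 to 76982862) with folds of 4.94 and 3.76. Myh6, the alpha myosin heavy chain of the adult mouse ventricle, lost the region 117 bp from its start (chromosome 14, 54966724 to 54966977), with folds of 5.06 and 4.64, which also lies within 5 kb of Myh7. At the Z-disc, Nrap and Pdlim1 kept regions, and 4 of 9 were lost, at Synpo2l, Ldb3 and Synpo. At Actn2, the Z-disc alpha-actinin, a region had folds of 8.19 and 5.27 in vehicle and 4.32 in Paro/Neo replicate 1. The first replicates had in common 3 of 10 vehicle regions at thin filament, 3 of 12 at thick filament and 5 of 15 at Z-disc genes, against 33.1% at all genes.

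In the vehicle lists 5 and 7 of 26 genes of fatty acid use and 8 and 5 of 28 glycolytic genes had a peak. At respiratory chain genes it was 3 and 2 of 32, against 8.59% and 8.20% of all protein-coding genes. Genes of fuel use lost most of the regions held by both vehicle lists, where 39.6% were lost at all genes. All 4 regions at genes of fatty acid use were lost: Ppargc1a, a coactivator of mitochondrial biogenesis, with folds of 8.49 and 5.47, Lpl with 5.47 and 4.53, Ppara with 4.32 and 4.13, and Cd36 with 4.14 and 3.87. Among glycolytic genes, Pfkl, a phosphofructokinase, lost the region over its start with folds of 4.62 and 8.06, and Pkm lost one of 3.64 and 5.77. Eno3, the muscle enolase, lost one of 6.36 and 6.0, which lies inside Spag7 and counts for Eno3 through its 5 kb flank. Egln3, an oxygen-sensing hydroxylase, kept a region of folds 7.91 and 6.98 in vehicle and 8.29 and 6.03 in Paro/Neo. Cox7a1, the heart and muscle form of a cytochrome oxidase subunit, kept the region over its start, with 4.37 and 5.36 against 4.52 and 4.95. The fatty acid regions had a median vehicle percentile of 43.4 and the glycolytic ones of 74.1, against 62.8 at all genes. In quartiles 1, 2 and 3 of vehicle fold, from the weakest up, 71.1%, 53.0% and 30.3% of all regions were lost. The lost fatty acid regions numbered 2, 1 and 1 there, and the lost glycolytic ones 1 and 2 in quartiles 2 and 3. With the first replicates alone, 0 of 7 vehicle regions at genes of fatty acid use and 1 of 8 at glycolytic genes were in Paro/Neo. The share at all genes was 33.1%. With counts this small, a difference between these lists and others was not tested.

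**Figure D4:**
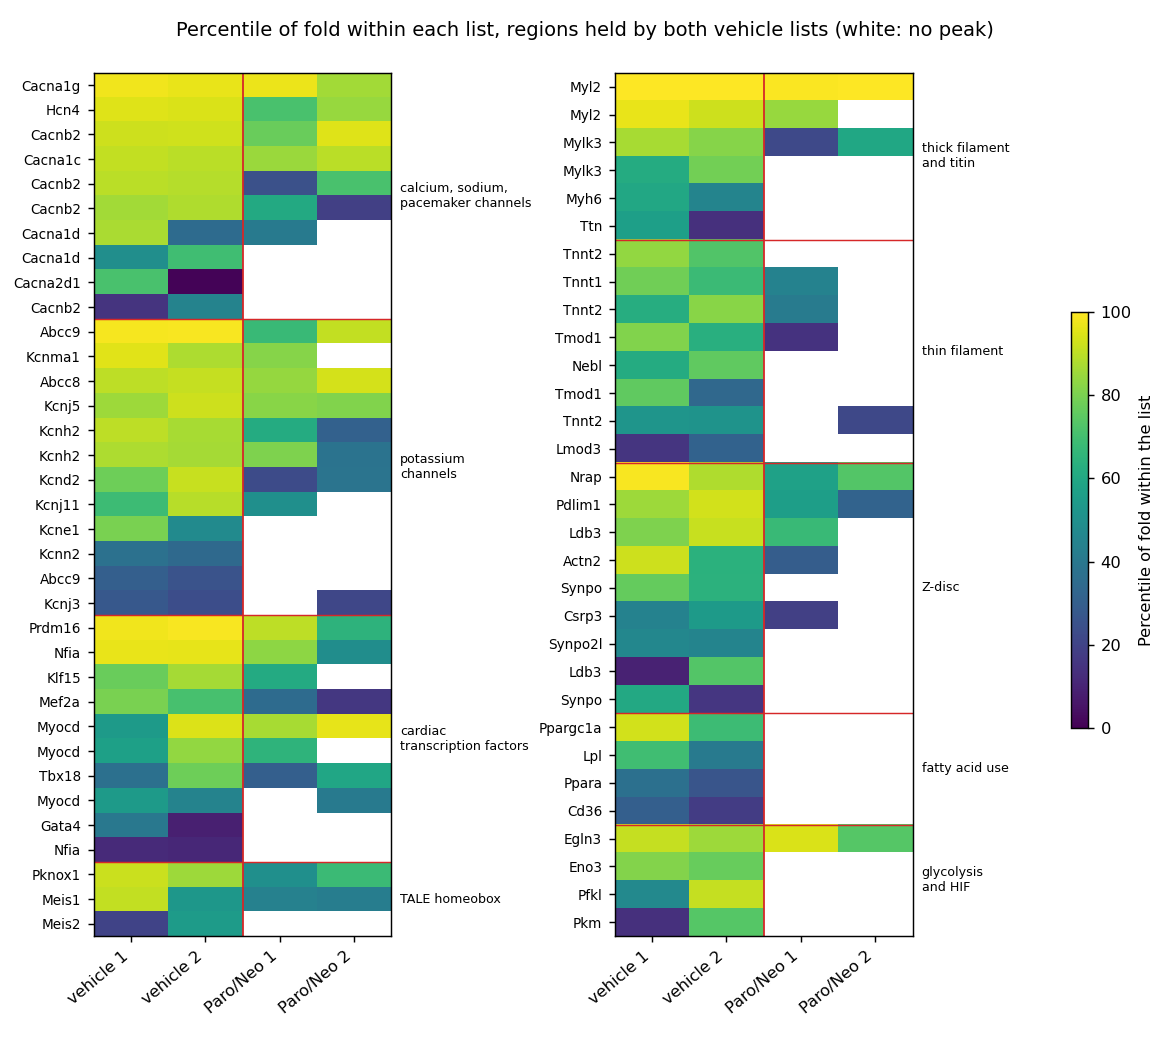
Percentile of fold within each list (colour, 0 to 100; white, no peak) for the regions held by both vehicle lists at genes of 9 lists, 1 row a region, with some members not shown; columns are the 4 lists, with a red line between vehicle and Paro/Neo. Channel, transcription factor and TALE genes (left) have peaks in Paro/Neo at most of their strong regions, and all 4 regions of fatty acid use (right) have none.

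Over all genes 29.5% of the regions held by both vehicle lists were kept and 39.6% were lost, and the counts of the signalling lists stand beside these shares. Adrenergic and angiotensin signalling genes kept 2 of 15 regions, at Adcy5 and Adcy6, the main cardiac adenylyl cyclases, and lost 7 (46.7%), among them regions at Pde4b, Akap13, Prkca and Prkce. Adra1b, an alpha-1 adrenergic receptor, had folds of 6.61 and 6.64 in vehicle, 3.91 in Paro/Neo replicate 1 and no peak in replicate 2. The formin gene Diaph2 lost a region with folds of 7.54 and 9.0, and Arhgef3 one of 7.32 and 6.40. Circadian genes kept 0 of 6 and lost 3, 2 of them at Per2. One of these, shared with the start of Hes6, had folds of 6.81 and 8.11. With the first replicates alone, Paro/Neo held 9 of 24 vehicle regions at adrenergic genes (37.5%) and 3 of 12 at circadian genes, against 33.1% at all genes. Calcineurin genes kept 0 of 4, but with the first replicates alone Paro/Neo held 2 of 4: the calcineurin subunit gene Ppp3ca and Rcan2 each lost one, and Rcan1, a calcineurin inhibitor, had 2 regions with folds of 6.90 and 5.62, and 7.04 and 6.06, in vehicle, 4.82 and 5.06 in Paro/Neo replicate 1 and no peak in replicate 2. The list of ErbB, insulin-like growth factor and insulin signalling kept 0 of 6 and lost 2, at Egfr and Foxo3, and the Hippo list had a single region, at Stk3, which was lost. The first replicates had in common 4 of 11 vehicle regions at the ErbB and insulin list (36.4%) and 0 of 6 at the Hippo list.

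With the same shares of all genes beside them, Wnt and Notch genes kept 2 of 7 regions, at Wnt11 and Heyl, and lost 3. Splicing regulators kept 4 of 9 and lost 4. Mbnl1, which drives adult splicing, kept a region of folds 12.5 and 9.75 in vehicle and 7.05 and 8.03 in Paro/Neo, and Rbfox1 kept 1 inside the gene (8.20, 8.48, 4.92 and 6.72) and lost 1 near a start. Chromatin regulators kept 4 of 15 and lost 4, with Jarid2 keeping the region over its start at folds of 6.96, 6.0, 6.19 and 6.09. The genes of intercalated discs kept 3 of 7, at Cdh2, Dsp and Pkp2, and lost 3, at Jup, Ctnna3 and Nectin2. Sarcoplasmic reticulum genes kept 3 of 7, at Jph2, Itpr1 and Camk2a, and lost 1. With the first replicates alone, Paro/Neo held 3 of 9 vehicle regions at Wnt and Notch, 5 of 14 at splicing and 9 of 22 at chromatin genes. It held 4 of 13 at intercalated disc and 5 of 17 at sarcoplasmic reticulum genes. At all genes the share was 33.1%, and these lists lie near it. Trim55 and Asb2, ubiquitin ligase genes of muscle, both kept theirs. Among markers of other cells, Pecam1 and Tek of endothelium and Gsn of fibroblasts kept a region each, and Pecam1 had folds of 10.7 and 9.97 in vehicle and 6.49 and 6.26 in Paro/Neo.

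The list of cyclin-dependent kinase inhibitors and pocket proteins has 11 genes. Of these, 1 and 2 had a peak in the vehicle lists and 1 and 0 in the Paro/Neo lists. Over all protein-coding genes the shares with a peak were 8.59% and 8.20% in vehicle and 4.07% and 2.83% in Paro/Neo. Cdkn1a, Cdkn2a and Cdkn2b had no peak within 5 kb in any of the 4 lists. Cdkn1b, the p27 inhibitor, had a region over its start (chromosome 6, 134920301 to 134920542) with folds of 4.84 and 5.65 in vehicle and 4.89 in Paro/Neo replicate 1, and no peak in replicate 2. The 33 cell cycle driver genes had 0 regions in both vehicle lists, and a single member had a peak, in vehicle replicate 2.

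At gene starts, 42 kept and 76 lost regions were found. Besides Cacna1c and Cacnb2, the kept starts of highest percentile were Apobec2, a muscle-restricted member of the cytidine deaminase family, with folds of 11.7 and 10.9 in vehicle and 11.4 and 8.26 in Paro/Neo, then Zfp68, Aph1b, Ubl3, Galnt15, Lysmd4, Frmd4a and Sh3kbp1. Other kept starts, named after their values were seen, included the cardiac genes Lrrc10 (8.52, 8.69, 4.79 and 6.24), Popdc2 (8.43, 6.39, 6.22 and 5.49) and Hspb7. Hspb7 also lost a weaker region near its start, with vehicle folds of 3.04 and 4.74. The lost start of highest percentile was Hes6, a Notch pathway regulator, 12 bp from the gene (chromosome 1, 91414050 to 91414401). It was followed by Phf13, Fsd2, Cdk8, Tspyl1, Kidins220, Trappc2l, Mtmr6, Pfkl and Prkag1, with mean vehicle percentiles from 80.4 to 69.1. The muscle genes Synpo2l, Unc45b and Ankrd23, also named after their values were seen, lost start regions with folds between 3.97 and 5.0.

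Cutting all lists to 1025 peaks asks which strong regions differ when list length is the same. Kept regions then lay at 262 genes (1.20%), lost ones at 56 (0.256%) and gained ones at 22 (0.101%). Of the 83 lost regions, 62 had no peak in either whole Paro/Neo list, and 21 had one in the rest of the list of Paro/Neo replicate 1, at ranks from 1026 to 1483. The list of Paro/Neo replicate 2 is itself 1025 peaks long, so nothing below its end could be looked up. That of Paro/Neo replicate 1 ends at 1541 peaks, against 3529 and 3176 in vehicle. Absence from the whole lists is therefore not comparable between lost and gained regions. The lost region with the best mean rank lay 237607 bp from Tns1, at ranks 193 and 194 in vehicle and 1107 in Paro/Neo replicate 1. That near Btg1, an antiproliferative gene 85657 bp away (chromosome 10, 96708470 to 96708805), ranked 310 and 92 in vehicle and had no peak in Paro/Neo. Regions at Diaph2, Plekhh1, Hes6 and Gnptab were among the 10 of best mean rank, each absent from both whole Paro/Neo lists. List genes among the lost were Ppargc1a, Tnnt2, Eno3 (through its flank), Per2, Hes6, Arhgef3, Diaph2 and Adra1b.

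The 42 regions gained at equal length were for the most part present in vehicle at lower rank. In the whole vehicle lists, 30 of them had a peak in both, 8 in 1 and 4 in neither. Their ranks there ran from 1034 to 3365 in vehicle replicate 1 and from 1030 to 2665 in replicate 2. The best mean rank was at Anks1b, with ranks 232 and 300 in Paro/Neo and 1132 and 2161 in vehicle. Dip2c ranked 305 and 285 against 1703 and 1549, and Wwp2, a ubiquitin ligase gene, 423 and 291 against 1190 and 2444. A region 934 bp from Maf, a transcription factor gene, ranked 480 and 527 against 3026 and 1096. Cox7a1 and Myocd were the list genes with a gained region at equal length. The fold at the end of the cut lists was 5.57 and 5.43 in vehicle and 4.44 and 1.43 in Paro/Neo, so a fold that passes the cut in Paro/Neo can be too low to pass it in vehicle.

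**Figure D5:**
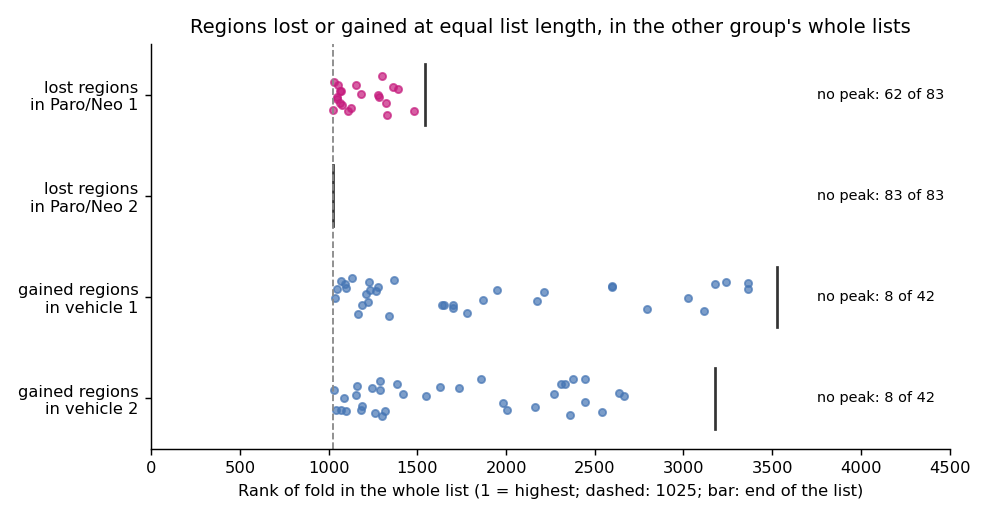
Rank of fold (x axis) in the whole lists of the other group for the 83 regions lost (pink) and the 42 gained (blue) at equal list length; the dashed line marks rank 1025, the black bars the end of each list, and the counts at the right the regions with no peak. In the list of Paro/Neo replicate 1, 62 of 83 lost regions have no peak, and 8 of 42 gained regions have none in each vehicle list. The vehicle lists reach further below rank 1025, so these counts cannot be set against each other.

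Within the 408 kept regions of the equal-length lists, both Paro/Neo ranks were better than both vehicle ranks at 71 (17.4%) and worse at 60 (14.7%). Ranks of 2 against 2 libraries have 6 possible orders, and each outcome is a single order. Both shares lie near that of a single order, so no shift between the groups is read from them. Of the listed genes, Cacna1c, Jarid2, Trim55, Abcc8 and Egln3 were among those on the first side, and Nfia, Prdm16, Pdlim1 and Abcc9 among those on the second, so channel genes stood on both. Prdm16 ranked 80 and 32 in vehicle and 152 and 361 in Paro/Neo. Stxbp4 had the widest gap, with ranks 943 and 830 in vehicle and 212 and 203 in Paro/Neo, and Ghr, the growth hormone receptor gene, the widest in the other direction, with 371 and 176 against 857 and 679. All genes of this paragraph were named after their ranks were seen.

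With whole lists, the 15 gained regions ranged in mean percentile from 0.951 to 54.6, 7 lay over 50 kb from a gene and 6 inside one. The strongest lay 99369 bp from Mpdz (chromosome 4, 81178899 to 81179130), with folds of 5.04 and 5.23 in Paro/Neo. It was followed by Ccdc28b at 290 bp (6.0 and 4.07), Pxdn, a peroxidasin gene, inside the gene (5.70 and 3.99), and Auts2, Rfpl4b and Rps12 at over 50 kb. The other 9 had as nearest gene Il31ra, Tra2a, Zc3h7a, Lars2, Sfi1, Alkbh8 or Axin2, with folds from 1.76 to 2.63 and ranks near the end of both lists, from 1519 to 1534 in Paro/Neo replicate 1 and from 988 to 1012 in replicate 2. No listed gene had a gained region. Of the 15, 6 overlapped a peak in 2 or more of the 4 Hoxb13 libraries (exact 95% interval of the share 16.3 to 67.7%), against 7.87% of kept and 6.82% of lost regions. These 6 were at Ccdc28b, Il31ra, Tra2a, Zc3h7a, Lars2 and Axin2. All of them but Ccdc28b had folds of at most 2.63, near the end of both Paro/Neo lists, so the share rests mostly on the weakest calls.

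Of 1228 microRNA genes, 12 lay within 5 kb of a kept region, 5 of a lost one and 1 of a gained one, and some share a region. Among the 21883 protein-coding genes the shares were 1.75%, 2.42% and 0.0320%. The gained region, near Mir101c, had folds of 2.04 and 1.76 in Paro/Neo, at ranks 1527 and 1012 near the end of both lists. The muscle microRNA genes Mir1a-2 and Mir133a-1 shared 1 kept region with Mir1b, with folds of 6.59 and 8.72 in vehicle and 5.82 and 4.77 in Paro/Neo. Mir486, also known from muscle, lay 3422 bp from a kept region inside Ank1 (5.40, 5.94, 5.67 and 4.57). Mir210, which responds to low oxygen, lay 262 bp from a kept region (chromosome 7, 141221755 to 141222110) whose fold was 6.39 and 5.17 in vehicle and 5.17 and 3.45 in Paro/Neo. Mir7036b lay 595 bp from a lost region at the start of Add1, with folds of 4.51 and 4.75. Mature sequences from RefSeq were matched for 13 of these genes, and their 22 seeds, bases 2 to 8, were all different. Mir301 lay 3665 bp from the kept region over the start of Ska2. Mature arms of Mir210 and Mir301, from the kept class, and of Mir7036b, from the lost class, are shown 5′ to 3′ with the seed in capitals, as examples of the 2 classes.
mmu-miR-210-3p: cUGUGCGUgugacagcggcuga
mmu-miR-301a-3p: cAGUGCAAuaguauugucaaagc
mmu-miR-7036b-5p: aCGCGGGGuucucuguggaagc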

How the data were processed

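Meis1 ChIP-seq peaks of 2 vehicle and 2 Paro/Neo ventricle libraries were analysed, 1 deposited list per library. Per the submitters' processing notes, the tools included FastQC 0.11.5, Bowtie2, Picard 1.127, MACS2 and HOMER, with build mm10. No header or label states their order or settings. Each deposited list holds broad peaks with a fold enrichment (a ratio), −log10 p and −log10 q values and a score per peak. The deposited score is the −log10 q value times 10, rounded down. The lowest deposited −log10 q value is 1.02. Depth is unknown, so folds and ranks were used within a list only.

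Peaks sharing at least 1 bp were merged with Python 3.11.15, pandas 2.3.3 and numpy 2.4.6, leaving out 3, 5, 0 and 4 peaks on the mitochondrial chromosome. A gene held a region that touched its body or 5 kb on either side. Starts were those of 17491 of 21883 genes in the RefSeq promoter table (GRCm38.p6), which has none for chromosome 18, so shares of starts leave that chromosome out. Percentiles are those of fold within a list. Library values were compared by exact two-sided permutation tests (SciPy 1.17.1), and intervals are Clopper-Pearson and cover counting error only. The merging and the classes were tested on simulated data.

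The members and gene lists were chosen with earlier results of these data known. The 35 lists have 783 entries, of which 782 matched. Genes are named by rank: the 15 kept and 15 lost regions of highest percentile, every gained region, the 10 best of each class at starts and at equal length, the 10 genes with most kept or lost regions, up to 4 members per class of a list, and 12 preset genes. Others are said to be named after their values were seen, and further list members are given as examples chosen after their values were seen. Alternatives were a 50% overlap, a −log10 q value of at least 2, lists of 500 peaks or ranked by q, other gene flanks, each library left out, second replicates exchanged and first replicates alone. The first replicates were used for the gene lists and promoter windows as an alternative chosen after seeing the data.

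The replicate numbers of the 2 groups come from the sample titles, and nothing in the labels ties equal numbers to a shared animal, litter or day. Some genes and 1 gene list are not reported here, although counts over the lists include them.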

Additional observations from a re-analysis of the deposited data

How the results depend on the processing

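The log2 difference in peak number stayed between −1.71 and −1.12 when each library was left out, and that in covered length between −1.70 and −1.13. With the replicate block the first was −1.41 (exact sign-flip p = 0.500, the smallest that 2 pairs allow). The start share differed by −2.95 to 0.00 percentage points with a library left out, with 0.00 without Paro/Neo replicate 1, and by −1.47 with the replicate block (exact p = 0.500). Leaving out single libraries gave 623 to 1056 kept, 978 to 2144 lost and 28 to 265 gained regions with whole lists, and 457 to 505 kept, 153 to 287 lost and 91 to 348 gained at equal length. Fewer lists in a class's definition raise its count by construction. The first replicates alone gave 1180 kept, 2349 lost and 361 gained with whole lists, and 615, 410 and 410 at equal length, counted on regions merged over those 2 lists. Exchanging the second replicates gave 34 lost and 82 gained with whole lists, and 53 and 76 at equal length. A −log10 q value of at least 2 left 8 gained regions. Lists of 500 peaks gave 194 kept, 29 lost and 26 gained. With 50 kb around each gene, 96 list members kept, 106 lost and 2 gained a region, against 54, 64 and 0 with 5 kb, and at equal length 8 lost and 2 gained one. The wider flank takes in more regions by construction. For the other changes the cause was not tested. Of 81 alternatives to the values over all regions or all lists, 45 left the value within 1.5 times or on the same side, 35 moved it and 1 changed its direction. Of 315 for single gene lists, 242 left the count within 1.5 times. The unknown depth limits every statement that a region was lost.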
